A study of Mus musculus with 4 samples.

Results

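Macrophage marker genes were followed in forelimb buds of mouse embryos with and without Smarcc1 in limb mesenchyme. The genes are Csf1r, Cx3cr1, Adgre1, Fcer1g, Tyrobp, C1qa, C1qb, C1qc, Mrc1 and Aif1. They were taken by name, whatever their values, and all 10 were found among the 35689 genes of the deposited table. RNA was sequenced from 4 libraries, each holding both forelimb buds of 1 embryo at E11.5, an age in days after conception. The 2 knockout embryos were PrxCre/+;Smarcc1c/c, and the 2 controls were Prx+/+;Smarcc1c/c. All 4 embryos were therefore homozygous for the conditional (c) allele, and the genotypes differed by the PrxCre transgene, which is active in limb bud mesenchyme and not in blood-derived cells. Each genotype had 1 embryo of 40 somites (replicate 1) and 1 of 39 somites (replicate 2). The title of the series concerns the BAF complex and GLI repression, so the comparison here asks what a mesenchymal knockout does to transcripts of a resident cell type outside the main question.

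Macrophages of the early embryo derive largely from yolk sac progenitors and enter the limb bud through the blood vessels and the surrounding tissue. They depend on signalling through the CSF1 receptor and clear dying cells, which in the limb bud are frequent at the margins and later between the digits. The product of Smarcc1, BAF155, is a scaffold protein of the BAF chromatin remodeller, and the transgene is not expected to delete it in macrophages.

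Values are TPM, an abundance scaled for transcript length and for the library total, so levels of different genes can be set side by side. TPM keeps no record of depth, so it is not known how many reads a value rests on. In each library between 12555 and 12689 genes reached 1 TPM. Smarcc1 itself fell. The control libraries held 112 and 119.6 TPM of it and the knockout libraries 46.2 and 38.4 TPM, a log2 change of -1.44 ± 0.13 (SE, n = 2 per genotype, limma, adjusted p = 0.0117 by Benjamini-Hochberg). That call ended with no filter on low values (limma, adjusted p = 0.111). Ddx3y, on the Y chromosome, was at 0.0498 and 0.013 TPM in the 40-somite libraries against 28.3 and 30.2 TPM in the 39-somite libraries, so sex and stage cannot be told apart. The control library of 39 somites was labelled with 580 ng of RNA and the other libraries with 310 to 340 ng. Markers of limb mesenchyme were abundant, with a summed level of 719 to 918 TPM over 8 genes. The 10 macrophage markers summed to between 20.5 and 37.3 TPM. Ptprc, which encodes the pan-leukocyte antigen CD45, lay between 0.350 and 0.552 TPM and was chosen after its values were seen.

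The macrophage markers were detected at low levels in both genotypes, and none passed the test between genotypes. Their summed level was 25.2 and 20.5 TPM in the knockout libraries of 40 and 39 somites and 26.1 and 37.3 TPM in the matching controls. The 39-somite control stood above the other libraries, and the 40-somite libraries differed by less than 1 TPM. Adgre1 had the largest difference, at 0.268 of its control mean, and its groups did not overlap. In bulk tissue, fewer cells of a type and less RNA per cell cannot be told apart.

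**Figure D1:**
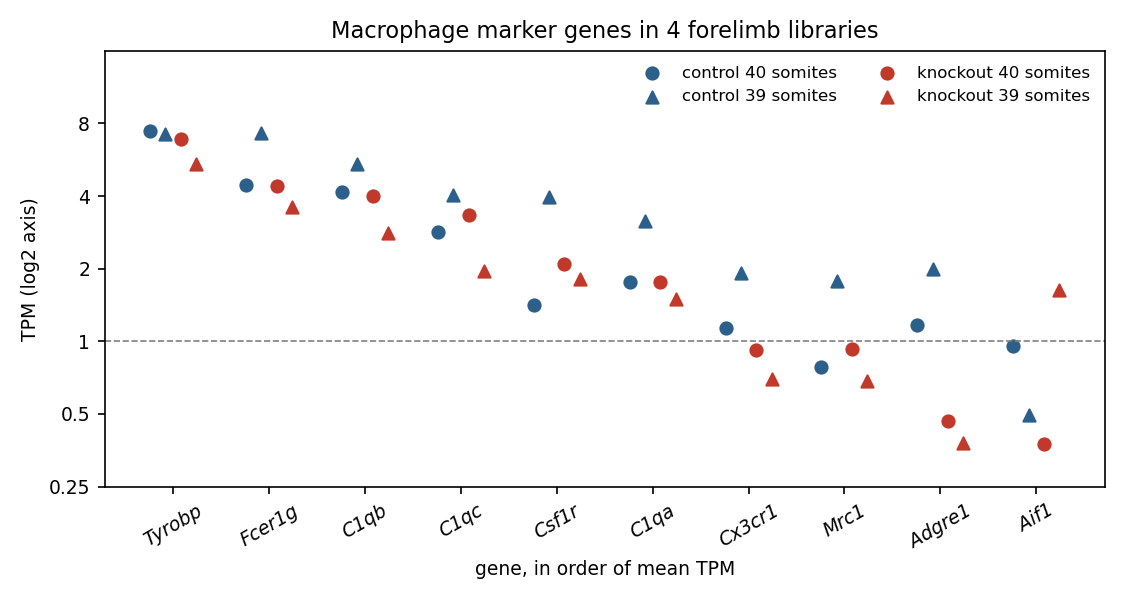
TPM of each macrophage marker gene (log2 axis) in each of the 4 libraries, with blue for control, red for knockout, circles for 40 somites and triangles for 39 somites, and a dashed line at 1 TPM. The 39-somite control is the highest library for 8 of the 10 genes, and Adgre1 is the gene whose genotypes lie furthest apart.

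Csf1r encodes the receptor for CSF1 and IL-34, on which macrophage survival depends. Its level, 40-somite library before 39-somite library here and below, was 2.09 TPM and 1.81 TPM in the knockout libraries, with the control libraries at 1.42 and 3.95 TPM. The knockout values lay between the controls, so the groups overlapped, and the 2 controls were further apart than the genotypes. The log2 fold change, knockout minus control on the log2(TPM + 1) scale, was -0.23 with a 95% interval from -1.04 to 0.58 (limma, Benjamini-Hochberg adjusted p = 0.840). Without the 39-somite control it was 0.28, with the direction turned. Csf1r (ENSMUSG00000024621) lies on chromosome 18 of mm10 from 61100598 to 61132149, and 873 bases of its span overlap Hmgxb3 on the opposite strand. Whether strand was used in counting is not given in the sources used here, so the values of overlapping genes are uncertain. Overlaps here are of whole gene spans, and whether exons overlap was not worked out.

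Cx3cr1, the receptor for the chemokine fractalkine, stood at 0.917 and 0.701 TPM in knockout buds, while control buds had 1.13 and 1.92 TPM. Both knockouts lay below both controls. The difference was -0.47 ± 0.21 log2 units (SE, n = 2 per genotype), short of the threshold (limma, adjusted p = 0.424 by Benjamini-Hochberg). Without the 39-somite control it was -0.24. The annotated span of Cx3cr1, on chromosome 9 from 119901616 to 120069879, overlaps 9 other genes, among them Wdr48 on the opposite strand, which stood at 42.8 to 46.2 TPM.

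Tyrobp and Fcer1g encode the membrane adaptors DAP12 and the Fc receptor gamma chain, which pass signals from activating receptors through ITAM motifs. Tyrobp was the most abundant marker, at 6.87 TPM (40 somites) and 5.43 TPM (39 somites) in knockouts, with 7.42 and 7.25 TPM in controls. Fcer1g stood at 4.41 TPM and 3.61 TPM in the knockout libraries, with the control libraries at 4.46 and 7.30 TPM. In both genes the groups did not overlap, with the knockouts lower, although for Fcer1g the 40-somite libraries were almost level, knockout minus control being -0.0123 log2 units. The log2 fold changes were -0.23 for Tyrobp (95% interval -0.61 to 0.15) and -0.43 for Fcer1g (-0.99 to 0.13). Their limma p values after Benjamini-Hochberg adjustment were 0.607 and 0.499, and neither passed. Without the 39-somite control, Fcer1g had a log2 fold change of -0.13 and Tyrobp -0.24. The ratio of Fcer1g to Tyrobp was 0.642 and 0.664 in the knockouts, 0.601 in the 40-somite control and 1.01 in the 39-somite control. Fcer1g lies on chromosome 1 from 171229572 to 171234365 and Tyrobp on chromosome 7 from 30413760 to 30417585.

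C1qa, C1qb and C1qc encode the 3 chains of C1q, the recognition part of the first complement component, which binds immune complexes and dying cells. They lie side by side on the minus strand of chromosome 4, between 136880129 and 136898803, and the annotation places no other gene in those 18.7 kb. C1qb was the highest of the 3, at 3.99 and 2.82 TPM in knockout buds, while control buds had 4.14 and 5.43 TPM. C1qc stood at 3.34 TPM (40 somites) and 1.95 TPM (39 somites) in knockouts, with 2.84 and 4.03 TPM in controls. C1qa stood at 1.76 TPM and 1.495 TPM in the knockout libraries, with the control libraries at 1.76 and 3.15 TPM. C1qa and C1qc overlapped between genotypes, and C1qb did not. All 3 chains were highest in the 39-somite control and lowest in the 39-somite knockout. Their log2 fold changes were -0.37 for C1qa, -0.40 for C1qb and -0.29 for C1qc, with 95% intervals of -0.93 to 0.20, -0.89 to 0.09 and -0.88 to 0.30. The limma p values, adjusted by Benjamini-Hochberg, were 0.576, 0.471 and 0.682, so none passed. Without the 39-somite control the log2 fold changes were -0.07, -0.23 and -0.10. C1qa transcript was between 0.425 and 0.579 of the C1qb level, and C1qc between 0.685 and 0.836, over the 4 libraries.

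Adgre1 encodes F4/80, the adhesion receptor widely used to identify mouse macrophages. It stood at 0.468 and 0.381 TPM in knockout buds, while control buds had 1.17 and 2.00 TPM. Both knockouts were low, and they lay closer to each other than the controls did. The knockouts were lower by a log2 fold change of -0.84 ± 0.21 (SE, n = 2 for each genotype, 95% interval -1.36 to -0.32). It did not pass over all genes (limma, unadjusted p = 0.00731, Benjamini-Hochberg adjusted p = 0.162), and the difference had the same sign at 40 somites (-0.56) and at 39 somites (-1.12). Over the alternatives that kept every library, the limma Benjamini-Hochberg adjusted p ran from 0.0960 to 0.282. With a library left out, 1 genotype is down to 1 embryo, and the log2 fold change ran from -1.08 to -0.61. Adgre1 lies on chromosome 17 from 57358691 to 57483527. It reached 1 TPM in the controls only, so it entered the test through the group in which it was high, as did Cx3cr1.

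Mrc1 encodes the mannose receptor CD206, found on tissue macrophages and on some endothelium. It stood at 0.930 TPM (40 somites) and 0.687 TPM (39 somites) in knockouts, with 0.780 and 1.78 TPM in controls. The groups overlapped, and the 39-somite control stood apart. Aif1 encodes the actin-binding protein IBA1, and stood at 0.374 TPM and 1.63 TPM in the knockout libraries, with the control libraries at 0.954 and 0.495 TPM. Here the 39-somite knockout was the highest library, and Aif1 was the only marker with a mean above that of the controls in the knockouts. Neither gene reached 1 TPM in at least 2 libraries, so neither entered the main test. With no filter on low values, the log2 fold changes were -0.30 for Mrc1 (95% interval -0.996 to 0.39) and 0.15 for Aif1 (-0.84 to 1.15), with limma Benjamini-Hochberg adjusted p of 0.715 and 0.911. Mrc1 lies on chromosome 2 from 14229392 to 14332057 and Aif1 on chromosome 17 from 35170991 to 35176068.

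**Figure D2:**
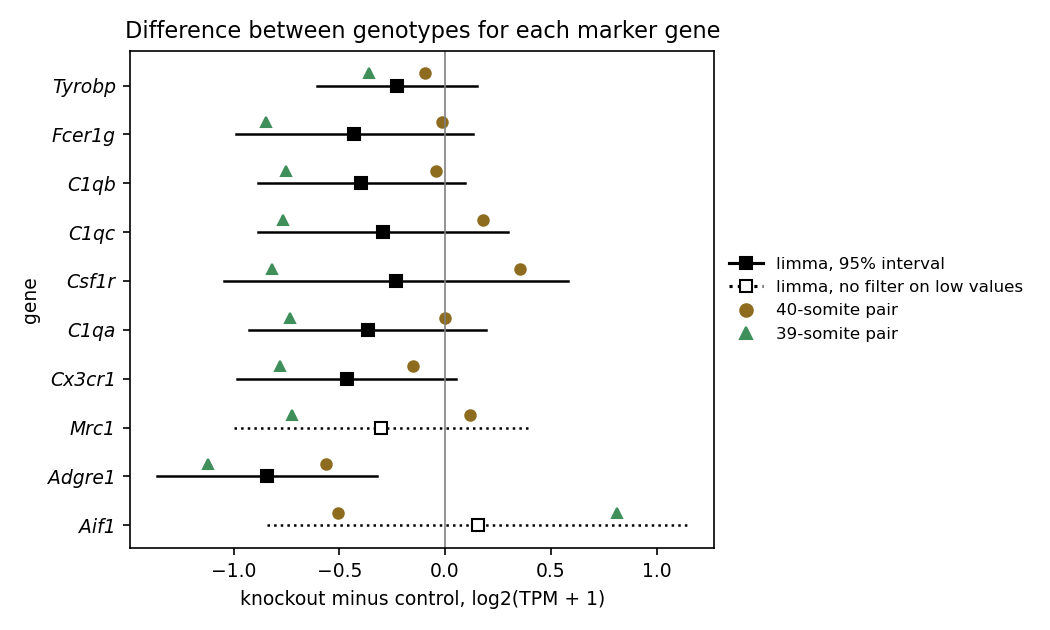
Difference between genotypes (x axis, knockout minus control, log2(TPM + 1)) for each gene, with the limma estimate and its 95% interval as a black square and line (open square and dotted line for the 2 genes tested only without the filter) and the differences within the 40-somite and 39-somite pairs as circles and triangles. The interval of Adgre1, from -1.36 to -0.32, is the only one that leaves out 0. Within the 39-somite pair 9 of the 10 genes have a lower value in the knockout, a share not worked out for all genes.

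PU.1, the product of Spi1, is the master transcription factor of macrophages and binds purine-rich sequences with the core GAGGAA. The letters GAGGAA, or TTCCTC on the other strand, were searched for in the 250 bases before the RefSeq start of each gene (GRCm38.p6, the same build as mm10). Windows were found for 6 of the 10 markers, Fcer1g, Mrc1, C1qb, C1qc, Cx3cr1 and Aif1. Of the 6, 4 held the letters, against 23.3% of 32851 windows of the same length. Not all of this sequence lies before the GENCODE gene. The RefSeq start of Cx3cr1 is 1583 bases inside that gene, and 151 bases of the C1qc window are inside its gene. The Aif1 match, at -7 from the RefSeq start, is among 16 bases inside its gene. Such overlap was not worked out for the 32851 windows. Fcer1g, Mrc1, C1qb, C1qc and Cx3cr1 were all highest in the 39-somite control and lowest in the 39-somite knockout. Stretches are shown for 3 of them picked by name, Mrc1, C1qb and Fcer1g, and their windows held 3, 1 and 0 matches. Each runs from 200 bases before the RefSeq start to the last base before the GENCODE gene, 5′ to 3′ on the gene's strand, with the matched letters in capitals. They cover chr2:14229214-14229391 (plus strand) for Mrc1, chr4:136886201-136886400 (minus strand) for C1qb and chr1:171234366-171234549 (minus strand) for Fcer1g.
Mrc1: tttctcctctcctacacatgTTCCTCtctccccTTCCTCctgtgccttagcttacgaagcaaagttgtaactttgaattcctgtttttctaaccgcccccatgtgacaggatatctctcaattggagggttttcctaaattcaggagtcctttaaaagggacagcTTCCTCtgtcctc
C1qb: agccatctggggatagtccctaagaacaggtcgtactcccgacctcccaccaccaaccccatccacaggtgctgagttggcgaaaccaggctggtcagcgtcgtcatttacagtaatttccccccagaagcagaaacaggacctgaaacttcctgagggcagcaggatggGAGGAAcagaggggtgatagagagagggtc
Fcer1g: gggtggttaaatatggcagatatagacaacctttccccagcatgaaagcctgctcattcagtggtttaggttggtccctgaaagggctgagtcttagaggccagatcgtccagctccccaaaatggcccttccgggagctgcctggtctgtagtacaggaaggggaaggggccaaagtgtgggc
A match is a description of the letters and no evidence of binding.

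In order of mean level, Tyrobp (6.74 TPM) came before Fcer1g (4.94), C1qb (4.10), C1qc (3.04), Csf1r (2.32), C1qa (2.04), Cx3cr1 (1.17), Mrc1 (1.04), Adgre1 (1.01) and Aif1 (0.863). Every gene overlapped its neighbour in this order over the 4 libraries. Tyrobp lay above 27.5% of the 12809 genes tested and Aif1 above 0.359%, so even the most abundant marker was in the lower part of the expressed genes. Between 6 and 9 of the 10 markers reached 1 TPM in each library, with 6 and 7 in the knockouts and 8 and 9 in the controls.

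Of the 8 markers that entered the test, 0 passed limma with Benjamini-Hochberg adjustment, while 1.30% of all 12809 genes did. At an unadjusted p below 0.05, 1 of the 8, Adgre1, was lower in the knockout and 0 were higher, against 6.89% and 6.78% of all genes. Adgre1 and Cx3cr1 entered the test through the controls, the group in which they were high, so this tally leans toward lower. All 10 markers had a TPM above 0 in every library. In 5 of the 10 (Cx3cr1, Adgre1, Fcer1g, Tyrobp and C1qb) both knockouts lay below both controls, against 21.5% of the 16896 genes above 0 in every library. In 0 of the 10 both knockouts lay above, against 21.7%. The log2 fold change was below 0 in 9 of the 10 against 49.2% of those genes, and the median was -0.33 against 0.00210. Genes read from the same 4 libraries are not independent, so these shares are descriptions.

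The 39-somite control, which was also the library with 580 ng of RNA, was the highest library for 8 of the 10 markers, against 33.6% of the 16896 genes. The 39-somite knockout was the lowest library for 8 of the 10, a count whose share over all genes was not worked out. With the 39-somite control left out, so that 1 control remained, the median log2 fold change of the 8 tested markers went from -0.38 to -0.18. With the 40-somite control left out instead it was -0.68. The part of RNA amount, stage or sex in this was not tested.

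The genes that act with the markers were mostly as low. Of 16 ligands and partners, 5 entered the test and 0 passed in limma (2 higher and 0 lower at an unadjusted p below 0.05). Among the 14 with a TPM above 0 in every library, 4 had both knockouts below both controls and 2 the reverse. The shares over the 16896 genes were 21.5% and 21.7%. The log2 fold change was below 0 in 9 of the 14, against 49.2% of those genes, with a median of -0.20. Csf1, the main ligand of Csf1r, stood at 1.42 and 1.28 TPM in knockout buds, while control buds had 1.54 and 2.70 TPM. The difference was -0.39 ± 0.22 log2 units (SE, n = 2 per group, Benjamini-Hochberg adjusted p = 0.532 in limma). Il34, its other ligand, was listed at 0 in every library. Fcgr3, an Fc receptor that pairs with the Fcer1g chain, stood at 1.78 and 1.09 against 1.33 and 2.20 TPM. The kinase gene Syk, downstream of both adaptors, stood at 1.62 and 1.905 against 1.54 and 1.82 TPM. Trem2, a receptor that signals through Tyrobp, lay at 0.116 to 0.643 TPM. Il34 and Trem2 were chosen after their values were seen.

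Serping1 and C1s1, whose products act on or within the C1 complex, were the 2 of the 14 with both knockouts above both controls. C1ra, of the same list and chosen after its values were seen, stood at 0.283 and 0.441 against 0.240 and 0.447 TPM. Serping1, which encodes the C1 inhibitor, stood at 10.2 TPM (40 somites) and 8.61 TPM (39 somites) in knockouts, with 5.91 and 5.56 TPM in controls. C1s1, which encodes a C1 protease and was chosen after its values were seen, stood at 2.63 and 1.94 against 0.891 and 0.598 TPM. In both the knockouts were the higher group at each stage. The log2 fold changes were 0.62 ± 0.15 and 0.91 ± 0.19 (SE, n = 2 per genotype), and neither passed (limma, Benjamini-Hochberg adjusted p = 0.135 and 0.110). With somite stage in the model, a term that here also stands for sex, the values were 0.0529 and 0.0474, so that C1s1 passed there.

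Among 9 macrophage transcription factors, 5 entered the test, Maf rose and 4 did not pass in limma. The controls held 1.81 and 2.18 TPM of Maf and the knockouts 7.12 and 10.4 TPM, a log2 fold change of 1.69 ± 0.20 (SE, n = 2 embryos a side, limma, adjusted p = 0.0257 by Benjamini-Hochberg). Maf is also expressed outside macrophages, and which cells its transcript came from was not tested. The sign of its difference was opposite to that of 9 of the 10 markers. Spi1, chosen after its values were seen, stood at 0.340 TPM and 0.370 TPM in the knockout libraries, with the control libraries at 0.868 and 1.26 TPM. It was too low for the main test. Cebpa stood at 2.22 and 1.35 against 2.9995 and 2.52 TPM and Zeb2 at 1.96 and 2.34 against 2.17 and 2.32 TPM, with limma Benjamini-Hochberg adjusted p of 0.428 and 0.943. Id3, which many cell types express, stood at 152 and 143 against 110 and 137 TPM. In 5 of the 9 factors both knockouts lay below both controls and in 2, Maf and Id3, above them, against 21.5% and 21.7% of the 16896 genes. The call for Maf ended with no filter, with a filter at 0.1 TPM and when the 40-somite or the 39-somite control was left out (limma, adjusted p = 0.0844 and 0.0695).

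Of 19 further macrophage markers, 8 entered the test and 0 passed in limma, with 0 at an unadjusted p below 0.05, and 10 stayed under 1 TPM in every library. The most abundant were Tmem119 (69.2 to 107 TPM) and Sirpa (8.72 to 10.6 TPM), which other cell types also express. Cd68, a lysosomal glycoprotein of macrophages, stood at 2.89 and 4.83 TPM in knockout buds, while control buds had 3.57 and 3.95 TPM. Its log2 fold change was 0.00195 with a 95% interval from -0.54 to 0.54. Of the 17 with a TPM above 0 in every library, 6 had both knockouts below both controls and 0 the reverse, against 21.5% and 21.7% of the 16896 genes. The log2 fold change was below 0 in 14 of the 17, against 9 of the 10 markers and 49.2% of the 16896 genes. The 39-somite control was the highest library for 10 of the 17, against 8 of the 10 markers and 33.6% of the 16896 genes. The median log2 fold change of the 17 was -0.07, against -0.33 for the 10 markers. That scale, log2(TPM + 1), understates changes of low genes. With log2(TPM + 0.1) the medians were -0.139 and -0.495. Gpr34, a receptor gene of microglia and other macrophages chosen after its values were seen, stood at 0.191 and 0.154 against 0.538 and 0.619 TPM.

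**Figure D3:**
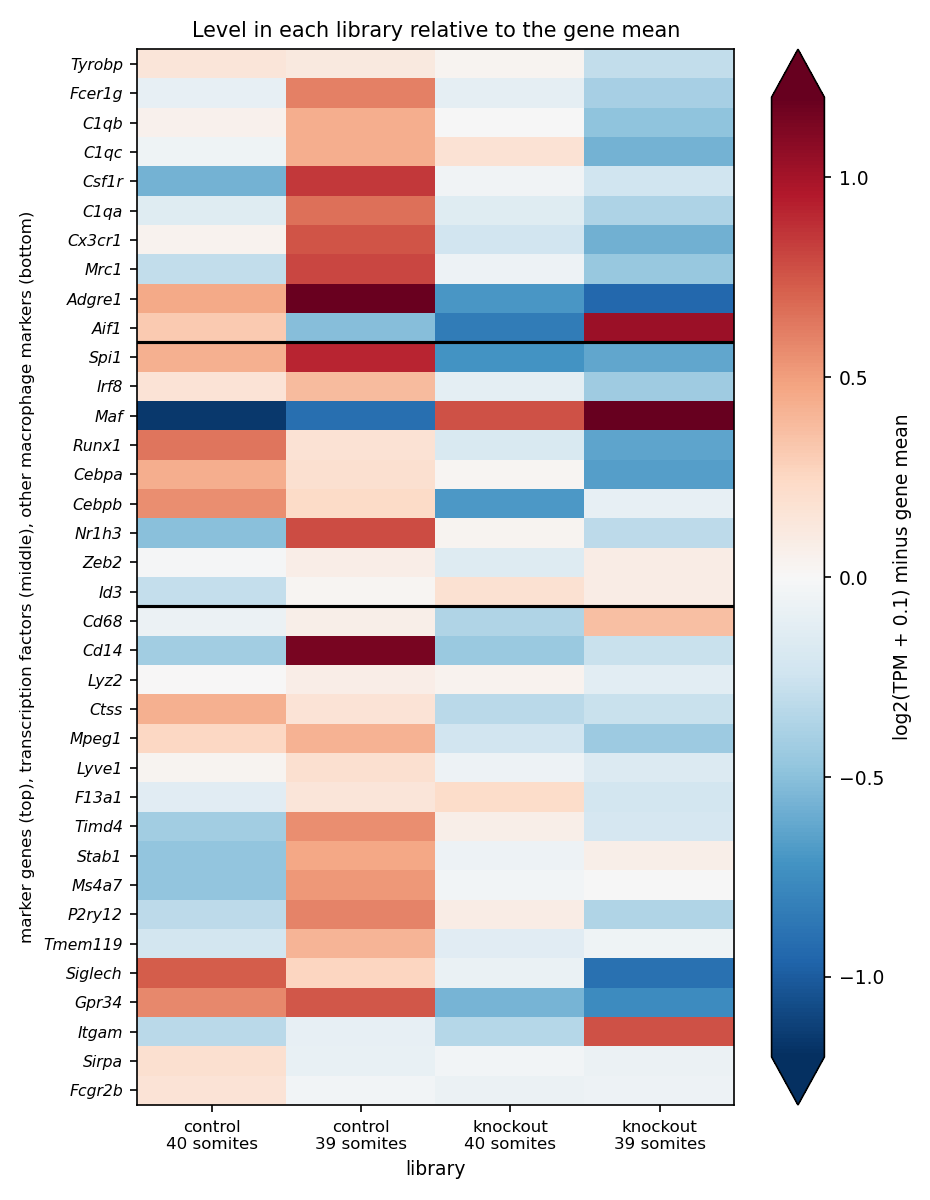
Level of each gene in each library as log2(TPM + 0.1) minus the mean of that gene (colour, red above and blue below), for the 10 macrophage marker genes at the top, 9 transcription factors in the middle and the 17 further macrophage markers above 0 in every library at the bottom. Most rows are red in the 39-somite control, and Maf and Aif1 are among those that are blue there.

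Among 17 genes of phagocytosis and dead-cell uptake, 13 entered the test and 0 passed in limma (1 higher and 2 lower at an unadjusted p below 0.05). Mertk, a receptor for dying cells, stood at 26.0 TPM (40 somites) and 28.6 TPM (39 somites) in knockouts, with 14.6 and 17.0 TPM in controls. The related receptor gene Tyro3 stood at 12.3 and 14.0 against 20.2 and 23.7 TPM. Cyba, a subunit of the phagocyte oxidase also found in other cells, stood at 12.1 and 14.2 against 20.3 and 21.9 TPM. These 3 were chosen after their values were seen. Their limma Benjamini-Hochberg adjusted p values were 0.0665, 0.0964 and 0.103, and 0.0223, 0.0276 and 0.0332 with somite stage in the model. Itgb5, Mfge8, Lrp1 and Itgav were the most abundant genes of the list and differed by 0.05, -0.34, -0.06 and 0.17 log2 units, none of them past the threshold.

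By a measure of likeness over the 4 libraries, the root-mean-square difference from the mean profile of the 10 markers in log2(TPM + 0.1), the nearest of 70 other genes from these lists were Csf1 (0.0814), Irf8 (0.132) and Vav1 (0.145). Among the markers themselves the nearest to their mean was Fcer1g (0.0745) and the furthest were Adgre1 (0.567) and Aif1 (0.930).

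Lists for other cells differed in their order of libraries. The 12 endothelial markers summed to 107 and 150 TPM in the knockouts of 40 and 39 somites and to 85.5 and 153 TPM in the controls, with 0 past the test and 0 at an unadjusted p below 0.05 in limma. They were high in both 39-somite libraries, whereas the macrophage markers were high in the control and low in the knockout of that stage. The 11 erythroid markers in the table summed to 12610 and 12002 TPM against 9939 and 11329 TPM, with 0 past the test in limma and 2 higher and 1 lower at an unadjusted p below 0.05. With somite stage in the model 1 of them, Hba-a1, passed as higher (limma, Benjamini-Hochberg adjusted p = 0.0487), a gene whose value is uncertain because Hba-a2 is a near-identical copy. The 13 pan-leukocyte genes summed to 39.0 and 55.6 against 47.7 and 55.1 TPM, and of the 8 tested 0 passed, with 1, Arhgdib, lower at an unadjusted p below 0.05. Arhgdib stood at 10.6 and 10.4 against 16.5 and 18.5 TPM (limma, Benjamini-Hochberg adjusted p = 0.0797, and 0.0378 with somite stage in the model). Fyb alone stood at 0.666 and 13.4 against 4.82 and 1.08 TPM. Without Fyb, a choice made after its values were seen, the other 12 pan-leukocyte genes summed to 38.3 and 42.3 against 42.9 and 54.0 TPM. That was the order of libraries of the macrophage markers except that the 2 knockouts changed places. The largest values in that sum were those of Coro1a (14.0 to 17.9 TPM), Arhgdib and Lcp1 (3.45 to 7.78 TPM). Which cells these transcripts came from was not tested. Ptprc, at 0.392 and 0.350 against 0.357 and 0.552 TPM, did not follow that order. Of the 13 pan-leukocyte genes, 8 were highest in the 39-somite control, as were 8 of the 10 macrophage markers and 33.6% of the 16896 genes. Megakaryocyte and platelet markers summed to 31.1 and 37.9 against 31.4 and 34.8 TPM. Lymphoid markers summed to 0.764 and 0.698 against 0.811 and 1.53 TPM, the same order of libraries as the macrophage markers, with 3 of 7 listed at 0 in every library. Granulocyte and mast cell markers summed to 8.71 TPM or more in each library. Most of that was Kit (4.71 to 6.37 TPM) and Prtn3 (2.93 to 4.79 TPM), while Mpo lay at 0.207 to 0.716 TPM. Of the 10, 4 were listed at 0 in every library, Ctsg, S100a9, Ly6g and Mcpt4.

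Surface ectoderm markers also had log2 fold changes below 0, in all 8 against 49.2% of the 16896 genes, with a median of -0.39. They summed to 409 TPM and 260 TPM in knockout buds, with 504 and 330 TPM in control buds, so both 40-somite sums were above both 39-somite sums. In 3 of the 8 both knockouts lay below both controls, against 21.5% of the 16896 genes. Krt14 was higher in the knockout at 40 somites (45.4 against 41.5 TPM). Of the 8 markers 0 passed in limma and 3 were lower at an unadjusted p below 0.05. With somite stage in the model Cldn6 passed as lower (limma, Benjamini-Hochberg adjusted p = 0.0230). Among 8 mesenchyme markers, Pdgfra rose. It was at 79.5 and 84.0 TPM in controls and at 162 and 173 TPM in knockouts (difference of 1.03 ± 0.11 log2 units, SE, n = 2 per group, adjusted p = 0.0165 by Benjamini-Hochberg in limma). The call for Pdgfra ended with no filter (limma, adjusted p = 0.105) and when the 40-somite or the 39-somite control was left out (0.0597 and 0.0524). With somite stage in the model Prrx1 also passed as lower and Col1a2 as higher (limma, Benjamini-Hochberg adjusted p = 0.0293 and 0.0335). Of muscle precursor, lymphatic endothelial and Schwann cell markers, 5, 1 and 2 entered the test and 0 passed in limma, with 1 muscle marker higher at an unadjusted p below 0.05. Whether these differences in other cells bear on the macrophage markers was not tested.

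**Figure D4:**
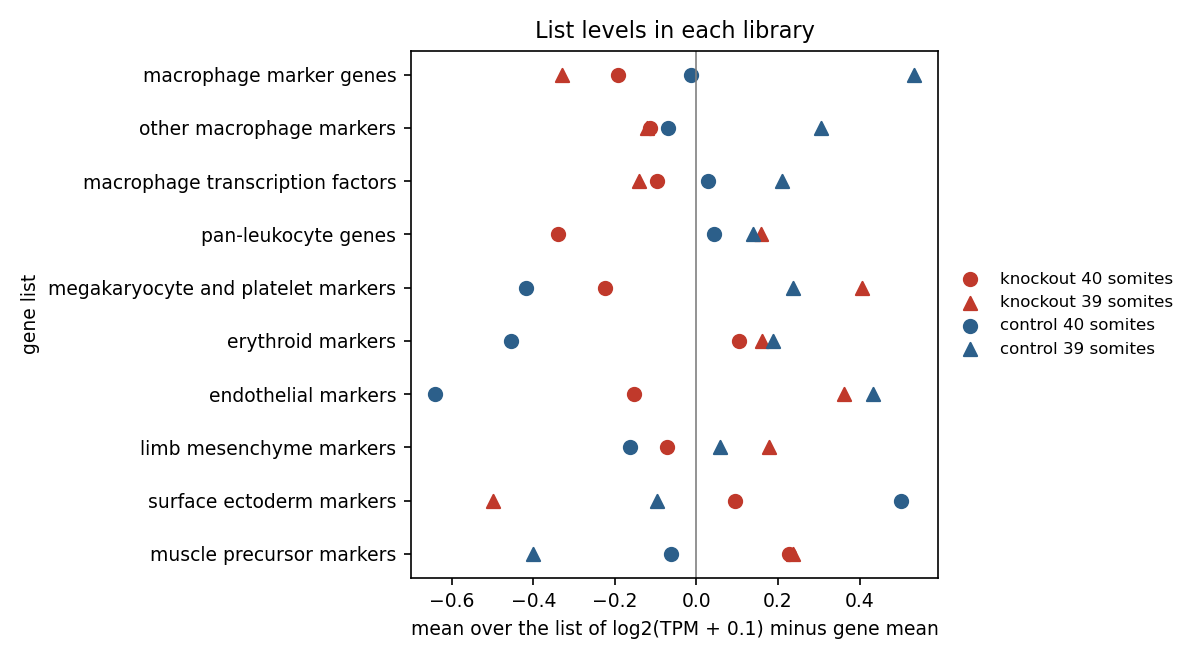
Mean over each gene list of log2(TPM + 0.1) minus the gene mean (x axis) in each library, with red for knockout, blue for control, circles for 40 somites and triangles for 39 somites. The macrophage marker genes stand at 0.53 in the 39-somite control and between -0.33 and -0.01 in the other libraries. The pan-leukocyte, platelet, erythroid, endothelial and limb mesenchyme lists are higher in both 39-somite libraries than in both 40-somite libraries. For the surface ectoderm list the reverse holds.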

How the data were processed

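RNA-seq values of 4 forelimb libraries were used as deposited. The authors deposited 1 table of TPM for 35727 Ensembl genes, each column summing to 1000000. Salmon 1.9.0 and mm10 are named in the submitters' processing notes, while its settings and transcript set were not given in the sources used here. One column name carries a letter that its sample title lacks. Symbols were matched for 35422 identifiers (99.1%) through GENCODE, and 38 repeated symbols were summed. Genes with at least 1 TPM in at least 2 libraries (12809) went into limma 3.58.1 (R 4.3.3) on the log2(TPM + 1) scale (trended eBayes, no covariates, Benjamini-Hochberg at 0.05 over all of them). A fold on this scale understates changes of low genes. With 2 libraries a side, the smallest two-sided exact permutation p is 0.333, so no such test was used. Precision rests on the 2 embryos per genotype, since depth is unknown. On simulated data of this comparison with 12809 genes, true log2 changes of 0.5, 1 and 2 were called in 0.149%, 25.8% and 71.8% of cases. The changed genes were drawn over all levels. Those with a mean log2(TPM + 1) below 2 were only raised, so a fall of such low genes was not simulated. Text names the 10 markers, and in each list the genes past the threshold and up to 4 of highest mean, with the rest said to be chosen later. Of the genes first listed, 2 were taken out of the lists and are not reported here. The markers, lists and rules were chosen with earlier results of these data known. The alternatives were 3 filters, 2 pseudocounts, 3 scalings, a stage block, 2 variance settings, a threshold of 0.1 and each library left out. The stage block also splits the libraries by sex, and it leaves fewer residual degrees of freedom than the 2 of the main fit.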

Additional observations from a re-analysis of the deposited data

Results flagged for a closer look

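For 5 of the 10 markers the knockout and control libraries differed in opposite directions at the 2 stages, with 1 embryo per genotype and stage. The share of all genes that do so was not worked out. The values are knockout minus control in log2(TPM + 1). Csf1r differed by 0.35 at 40 somites and -0.82 at 39 somites. C1qa differed by 0.000625 at 40 somites, which is no difference in practice, and by -0.73 at 39 somites. C1qc differed by 0.18 and -0.77. Mrc1 differed by 0.12 and -0.72. Aif1 ran the other way, with -0.51 at 40 somites and 0.82 at 39 somites. The difference between the stages was not tested, since 4 libraries leave no replicate within a stage.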

How the results depend on the processing

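The number of genes past the threshold was 167, 0 with no filter on low values, 62 with a filter at 0.1 TPM, 275 with robust eBayes, 316 at a threshold of 0.1 and 50 to 646 with a library left out. With somite stage as replicate block it was 533. Libraries of the same stage shared deviations from their genotype means (Pearson 0.2505 and Spearman 0.364 over 12809 genes, which are not independent replicates). The labels give only the stage in common, while by Ddx3y they also shared sex. None of the markers passed in limma under any alternative that kept every library. Adgre1 alone did without the 40-somite knockout, at a log2 fold change of -0.89, in a fit with 1 knockout embryo. The filter at 5 TPM left 1 marker, Tyrobp, in the test. The log2 fold change of Csf1r ran from -0.75 to 0.28 with a library left out and turned upward without the 39-somite control. The other 7 tested markers stayed below 0 under every alternative in which they were tested. Of the other macrophage lists 1 gene passed, against 0 with no filter, 0 with a filter at 0.1 TPM, 2 with median-ratio scaling, 2 with quantile normalization, 5 with the replicate block, 2 with robust eBayes, 3 at a threshold of 0.1 and 0 to 4 with a library left out. The causes were not tested. Depth is unknown, and the simulated data put most changes under 2-fold out of reach of the test. Falls of low genes were not simulated.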

Other observations

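Some immune genes differed more within a genotype than between genotypes, as Csf1r did among the markers. Those below are examples, and the share of all genes that do so was not worked out. Fyb, an adaptor gene of leukocytes, was at 0.666 TPM in the 40-somite knockout and 13.4 TPM in the 39-somite knockout, with controls of 4.82 and 1.08 TPM. Cybb, the catalytic subunit of the phagocyte oxidase, stood at 1.01 TPM in the 40-somite knockout and at 0.160 to 0.238 TPM in the other libraries. Cd14, a lipopolysaccharide co-receptor, stood at 1.91 TPM in the 39-somite control and at 0.571 to 0.659 TPM in the others. These were chosen after their values were seen.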
